A study of Mus musculus with 4 samples.

Results

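The genes of antigen presentation by the major histocompatibility complex (MHC) were described in nuclei of mouse heart ventricles from 4 groups, across classes of nuclei and libraries. The members were every gene whose symbol begins with H2-, together with B2m, Cd74, Ciita, Nlrc5, Tap1, Tap2, Tapbp, Psmb8 and Psmb9, which gave 47 of the 25906 genes listed. A member was reported where it had at least 20 UMIs (unique molecular identifiers, each standing for 1 captured transcript) over the 4 libraries, and 34 did. Another 8 members had 0 UMIs and 5 had between 1 and 7. The groups were a running infarct library (16 weeks of voluntary wheel running, then a myocardial infarction, hearts taken 2 weeks later), a sedentary infarct library (the same surgery and interval without the wheel), a running library (16 weeks of wheel running, no infarction) and a sedentary library (neither). All mice were wild-type C57BL/6J, male and female, and 8 weeks old when the running period began. Each infarct library pooled 4 hearts and each library without infarction pooled 2 hearts, so the pooled hearts cannot be told apart and each group is 1 library. No test between groups could therefore be made. Ratios are given with 95% intervals that cover counting error only, and nothing in them speaks of the spread between animals.

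MHC class I molecules are made by nearly all nucleated cells: a heavy chain, encoded in the mouse by H2-K1, H2-D1 and the genes of the Q, T and M regions, pairs with beta-2-microglobulin (B2m) and shows peptides from the cytosol to CD8+ T cells. Those peptides are cut by the immunoproteasome (Psmb8, Psmb9), carried into the endoplasmic reticulum by the TAP transporter (Tap1, Tap2) and loaded with the help of tapasin (Tapbp), and Nlrc5 is the transactivator of these genes. MHC class II molecules (H2-Aa with H2-Ab1, and H2-Eb1 with H2-Ea) are held mainly by dendritic cells, B cells and macrophages, where they show peptides from endosomes to CD4+ T cells; the invariant chain (Cd74) escorts them, H2-DM exchanges their peptides, H2-O restrains H2-DM, and Ciita is the master transactivator. The H2-Ea gene is not functional in C57BL/6 mice, and it had 0 UMIs here.

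The files held 19806 barcodes of nuclei, of which 46 barcode sequences occurred in more than 1 library. After filtering and removal of likely doublets, 4711 nuclei were kept in the running infarct library, 3124 in the sedentary infarct library, 5832 in the running library and 5114 in the sedentary library. Classes were rebuilt by clustering with the members left out, so that no class was defined by them, and were named "-like" from marker genes. Unnamed clusters held 1225, 820, 1326 and 1017 nuclei in the same order of libraries. The heart identity of the tissue was plain in the nuclei called cardiomyocyte-like, where 10 cardiomyocyte transcripts (Ttn, Myh6, Ryr2 and others) summed to 59511, 60687, 58409 and 59235 CPM (counts scaled to a class total of 1000000). The libraries stood apart in mitochondrial share: vascular endothelial-like nuclei drew 4.96% of their UMIs from mitochondrially encoded genes in the running infarct library, 5.21% in the sedentary infarct library, 9.30% in the running library and 7.05% in the sedentary library. CPM values below are relative to the class total without these genes. Of the 47 members, 43 lie on chromosome 17. Transcripts of class I genes that are alike in sequence, such as H2-Q6 and H2-Q7, cannot be separated with certainty by reads from the 3′ end. Values for single class I genes are therefore uncertain and their sums less so. How alike the members are was not measured here. H2-T10, H2-Q5 and H2-Bl are annotated as polymorphic pseudogenes, and H2-Ke6 carries the prefix although it encodes the steroid dehydrogenase Hsd17b8, not an MHC molecule.

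The promoters of H2-K1, H2-D1, H2-Q7 and B2m, and of 2 class II genes, are shown because the textbook elements of MHC regulation can be read in them. Other class I genes that differ below, such as H2-Q6 and H2-Q4, are not shown. Windows of 250 bases before to 50 bases after the start came from RefSeq (GRCm38.p6, not the GRCm39 build of the counts). Motifs were searched on both strands as the Y box core (GATTGG), the interferon-stimulated response element (GAAA, 2 bases of any kind, GAAA), the gamma-activated site (TTCNNNGAA) and the kappa B site (GGG, 2 bases of any kind, TTCCC), and capitals mark each match; no matches overlap in the windows shown.
H2-K1 (chr17:34000284-34000583, minus strand): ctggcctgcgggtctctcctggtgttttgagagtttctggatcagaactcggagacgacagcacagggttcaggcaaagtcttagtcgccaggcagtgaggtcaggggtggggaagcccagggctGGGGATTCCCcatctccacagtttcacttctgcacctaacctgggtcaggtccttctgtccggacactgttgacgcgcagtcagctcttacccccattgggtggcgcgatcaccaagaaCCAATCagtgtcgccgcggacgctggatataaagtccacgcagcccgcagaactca
H2-D1 (chr17:35262844-35263143, plus strand): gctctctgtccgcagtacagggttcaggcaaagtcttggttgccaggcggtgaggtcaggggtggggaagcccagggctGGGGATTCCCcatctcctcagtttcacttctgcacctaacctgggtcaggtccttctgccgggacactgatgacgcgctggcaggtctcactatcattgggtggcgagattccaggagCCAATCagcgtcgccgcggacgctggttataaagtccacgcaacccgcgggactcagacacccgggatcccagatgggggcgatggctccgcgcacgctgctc
H2-Q7 (chr17:35438905-35439204, plus strand): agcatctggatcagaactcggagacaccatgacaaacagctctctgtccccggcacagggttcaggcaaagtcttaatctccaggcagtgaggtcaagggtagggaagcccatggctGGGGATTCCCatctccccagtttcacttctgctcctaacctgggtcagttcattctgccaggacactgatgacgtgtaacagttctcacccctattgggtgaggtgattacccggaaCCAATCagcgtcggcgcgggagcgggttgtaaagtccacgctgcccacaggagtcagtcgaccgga
B2m (chr2:122147437-122147736, plus strand): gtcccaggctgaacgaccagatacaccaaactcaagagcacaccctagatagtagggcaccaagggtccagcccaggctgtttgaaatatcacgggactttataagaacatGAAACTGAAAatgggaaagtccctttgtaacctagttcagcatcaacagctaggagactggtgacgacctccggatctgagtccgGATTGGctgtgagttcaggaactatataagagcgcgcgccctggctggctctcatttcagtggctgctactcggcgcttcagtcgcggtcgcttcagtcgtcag
H2-Aa (chr17:34287774-34288073, minus strand): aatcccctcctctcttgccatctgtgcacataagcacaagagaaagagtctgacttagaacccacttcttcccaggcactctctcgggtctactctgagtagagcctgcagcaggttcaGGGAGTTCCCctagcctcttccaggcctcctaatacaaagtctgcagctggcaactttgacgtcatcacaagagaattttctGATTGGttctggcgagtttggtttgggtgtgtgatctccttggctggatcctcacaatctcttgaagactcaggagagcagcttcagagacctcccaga
H2-Eb1 (chr17:34305617-34305916, plus strand): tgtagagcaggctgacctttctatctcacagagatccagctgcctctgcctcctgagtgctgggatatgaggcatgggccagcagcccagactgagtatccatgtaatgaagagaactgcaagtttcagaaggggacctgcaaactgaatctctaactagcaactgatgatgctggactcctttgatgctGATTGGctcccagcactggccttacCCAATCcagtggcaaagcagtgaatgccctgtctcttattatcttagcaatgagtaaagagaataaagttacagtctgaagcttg
The Y box core was present in the windows of 8 of 8 class II members and of 10 of 12 members of a second set, against 16.1% of all 32851 promoter windows. The second set was H2-K1, H2-D1, H2-Q4, H2-Q6, H2-Q7, H2-T22, H2-T23, B2m, Tap1, Tapbp, Psmb8 and Psmb9. It left out the class I genes H2-M3, H2-M5, H2-Q10 and H2-T3, whose windows had no match to the Y box core or the kappa B site. Over all listed members with a window, 19 of 25 had the Y box core. A member was counted when any of its windows matched, whereas the background share is per window. H2-DMa also had a window without the Y box core, and the windows of Psmb9 and Tap1 overlap. A kappa B match was present in 5 of the 12 members of the second set (H2-K1, H2-D1, H2-Q4, H2-Q6 and H2-Q7), against 1.75% of all windows, and in 2 of the 8 class II members. The response element matched in B2m, H2-T22 and H2-T23 and in none of the class II windows, against 3.44% of all windows. The gamma-activated site matched in 1 member of each set and in H2-M3 outside both, against 8.30% of all windows. These are matches of letters, not shown sites of binding.

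Among the named classes, class II transcripts had their highest levels in the professional antigen-presenting ones. The class II sum (Cd74, H2-Aa, H2-Ab1 and H2-Eb1) averaged 2672 CPM in dendritic cell-like nuclei over the 2 libraries with at least 10 such nuclei, 846 CPM in B cell-like nuclei over 3 libraries and 803 CPM in macrophage-like nuclei over 4 libraries, where the libraries ran between 729 and 867 CPM. B cell-like nuclei (616 to 995 CPM) and macrophage-like nuclei overlapped in range, so their order is not fixed by these libraries. Below them among the named classes came T cell-like nuclei with a mean of 138 CPM and glial-like nuclei with 121 CPM. Vascular endothelial-like nuclei had 111 CPM, fibroblast-like nuclei 46.3 CPM and cardiomyocyte-like nuclei 31.2 CPM. The T cell-like mean rests on few nuclei. Just 10 nuclei held 73.6% of its class II UMIs in running infarct and 92.9% in sedentary infarct hearts. In running and sedentary hearts it had only 8 and 12 UMIs. Class I was spread far more evenly: the sum of H2-K1, H2-D1 and B2m averaged 1259 CPM in vascular endothelial-like and 1259 CPM in T cell-like nuclei, 1132 CPM in B cell-like, 954 CPM in macrophage-like, 877 CPM in dendritic cell-like, 846 CPM in endocardial-like, 384 CPM in fibroblast-like and 129 CPM in cardiomyocyte-like nuclei. Cardiomyocyte-like nuclei were at the foot of the order for all 3 sums. Among the unnamed clusters, the class II sum averaged 369 CPM in the low-depth one and 228 CPM in a deep, Top2a-led mixed one. That Top2a-led cluster held 2134, 1745, 570 and 394 class II UMIs in running infarct, sedentary infarct, running and sedentary hearts. Macrophage-like nuclei held fewer, with 1276, 671, 524 and 318 UMIs.

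**Figure D1:**
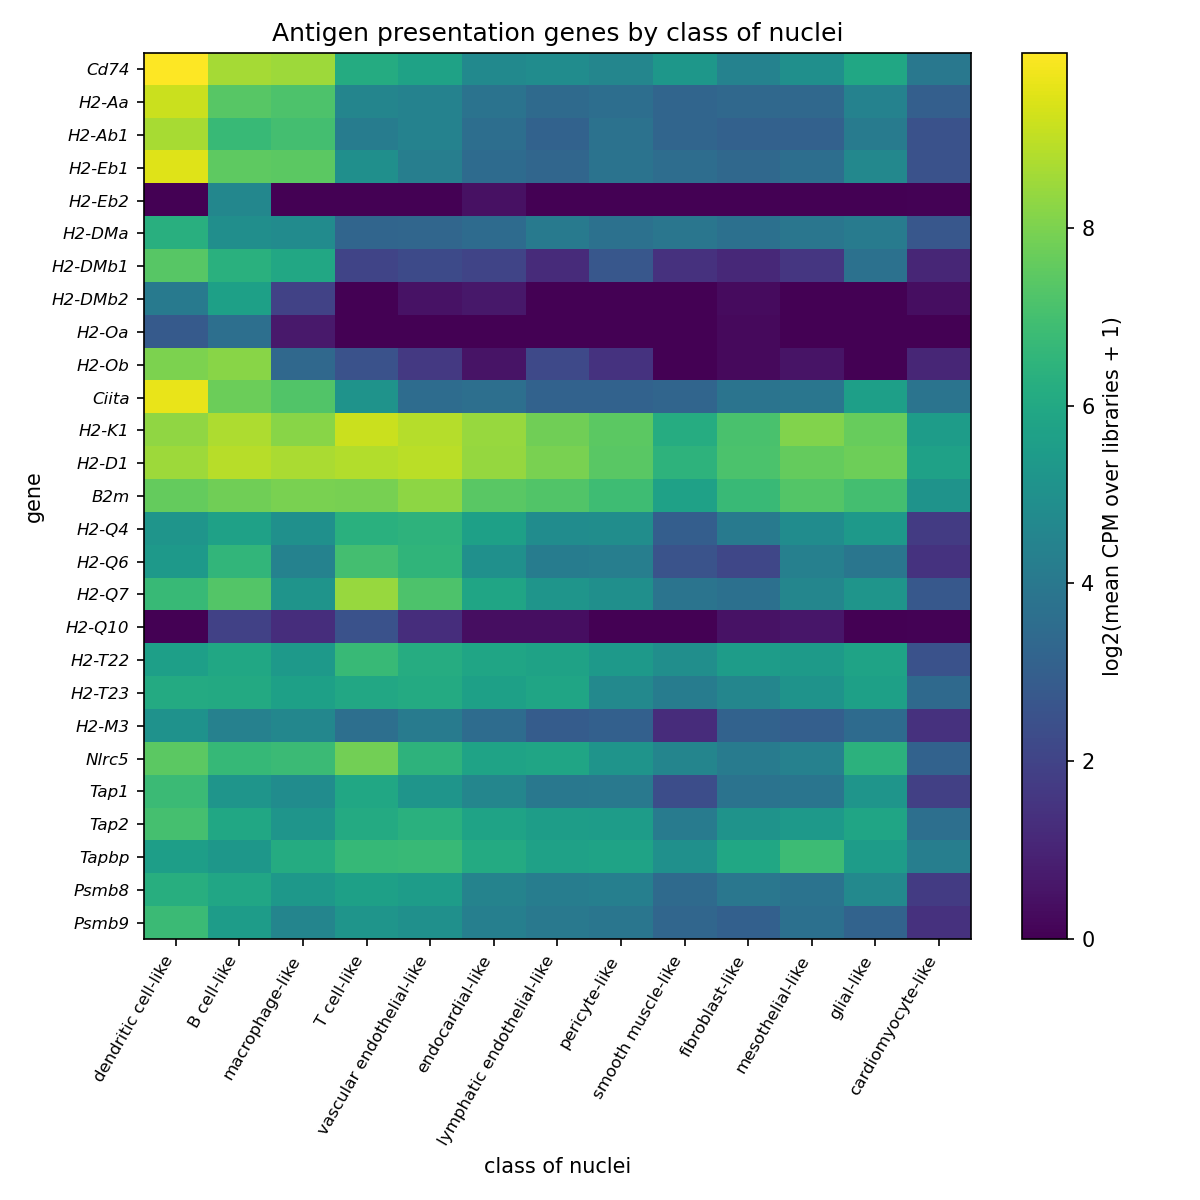
Mean level over libraries of antigen presentation genes (rows) in the named classes of nuclei (columns), as log2 of CPM + 1, leaving out libraries with fewer than 10 nuclei of a class. The class II genes in the upper rows are brightest in the dendritic cell-like, B cell-like and macrophage-like columns, while H2-K1, H2-D1 and B2m are spread over more columns and are dimmest in the cardiomyocyte-like and smooth muscle-like ones; colours are for comparing classes within a gene.

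The accessory genes of class II separated the presenting classes from each other. Ciita averaged 790 CPM in dendritic cell-like, 212 CPM in B cell-like and 151 CPM in macrophage-like nuclei. H2-Ob, a chain of H2-O, averaged 295 CPM in B cell-like and 255 CPM in dendritic cell-like nuclei and only 9.29 CPM in macrophage-like nuclei. H2-DMb2 (49.5 CPM, from 10, 6 and 2 UMIs) and H2-Eb2 (23.4 CPM, from 3, 1 and 3 UMIs) had their highest means in B cell-like nuclei of the running infarct, sedentary infarct and running libraries, and H2-Oa, with 3, 0 and 1 UMIs there, was too sparse to rank. H2-DMa with 77.5 CPM and H2-DMb1 with 166 CPM, chains of H2-DM, were highest in dendritic cell-like nuclei, and H2-DMb1 stood at 61.7 CPM in macrophage-like nuclei. Nlrc5 was highest in T cell-like nuclei with a mean of 229 CPM, as was H2-Q7 with 346 CPM.

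In macrophage-like nuclei the class II sum was nearly the same in all groups: 781 CPM in running infarct, 836 CPM in sedentary infarct, 867 CPM in running and 729 CPM in sedentary nuclei, from 663, 240, 203 and 149 nuclei. The ratio was 0.934 for running infarct over sedentary infarct (0.850 to 1.03), 0.901 for running infarct over running (0.813 to 0.999), 1.15 for sedentary infarct over sedentary (1.00 to 1.31) and 1.19 for running over sedentary (1.03 to 1.37). All 4 lay inside 1.5-fold. Cd74 had 325 CPM in running infarct, 376 CPM in sedentary infarct, 402 CPM in running and 339 CPM in sedentary nuclei. H2-Eb1, a class II beta chain, had 186 CPM in running infarct, 189 CPM in sedentary infarct, 162 CPM in running and 156 CPM in sedentary nuclei. Ciita had 170, 143, 129 and 163 CPM in the same order. H2-Aa, the class II alpha chain, had 152 CPM in running infarct, 137 CPM in sedentary infarct, 179 CPM in running and 110 CPM in sedentary nuclei, a ratio of 1.62 for running over sedentary (1.14 to 2.33). H2-Aa was thus past 1.5-fold in that comparison, while Cd74, H2-Eb1 and Ciita were inside it in all 4. Of the members that reached 50 UMIs when both libraries were added, 1 of 23 was at least 1.5-fold higher and 2 were at least 1.5-fold lower in running infarct than in sedentary infarct nuclei, against 4.96% and 5.70% of all genes measured. For running infarct over running, 0 of 21 were higher and 4 were lower, against 9.37% and 10.2% of genes. For sedentary infarct over sedentary, 1 of 13 was higher and 0 were lower, against 11.1% and 7.81%. For running over sedentary, 2 of 12 were higher, H2-Aa and Nlrc5, and 0 were lower, against 7.92% and 4.65%. No member's interval lay wholly past 1.5-fold in macrophage-like nuclei in any comparison. H2-Q4, with 36 UMIs in running infarct and 32 UMIs in running nuclei of this class, had a ratio of CPM of 0.416 (0.251 to 0.692), and Nlrc5 had 151 CPM in running and 73.4 CPM in sedentary nuclei, a ratio of 2.05 (1.36 to 3.17); both were picked after their values were seen.

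The even class level was the sum of unlike parts. A finer clustering, also without the members, divided the macrophage-like nuclei into groups led by Vsig4, by Sirpb1a and by F13a1, and their shares differed sharply between libraries. The Vsig4-led group made up 30.3% of macrophage-like nuclei in running infarct, 42.5% in sedentary infarct, 61.6% in running and 68.5% in sedentary hearts. The Sirpb1a-led group, with Ccr2 among its genes, made up 50.5%, 44.2%, 15.8% and 7.38%. Within the Vsig4-led group the class II sum was 314 CPM in running infarct and 382 CPM in sedentary infarct nuclei, against 631 CPM in running and 688 CPM in sedentary nuclei. The ratio was 0.497 for running infarct over running (0.415 to 0.594) and 0.556 for sedentary infarct over sedentary (0.452 to 0.683). It was 0.820 for running infarct over sedentary infarct (0.664 to 1.02) and 0.918 for running over sedentary (0.773 to 1.09). Cd74 was low after infarction in both pairs, with 139 CPM in running infarct and 185 CPM in sedentary infarct nuclei, against 297 CPM in running and 322 CPM in sedentary nuclei. H2-Eb1 had 60.2 CPM in running infarct and 82.5 CPM in sedentary infarct nuclei, against 115 CPM in running and 145 CPM in sedentary nuclei. H2-Aa had 64.5 CPM in running infarct and 65.0 CPM in sedentary infarct nuclei, against 128 CPM in running and 101 CPM in sedentary nuclei. H2-Ab1, the class II beta chain that pairs with H2-Aa, had 50.1 CPM in running infarct nuclei and, from 20 UMIs, between 30.5 and 77.2 CPM in sedentary infarct nuclei, against 91.1 CPM in running and 120 CPM in sedentary nuclei. Ciita had 65.9 and 45.0 CPM after infarction, against 97.6 CPM in running and 128 CPM in sedentary nuclei. In these nuclei the values of the receptor genes, Cd74 and Ciita were all lower in both infarct libraries than in both libraries without infarction. For every gene but Cd74, however, some counting intervals overlapped between an infarct library and a library without infarction. Ciita, for example, had 48.2 to 87.9 CPM in running infarct and 71.2 to 131 CPM in running nuclei. In sedentary infarct nuclei it rested on 18 UMIs.

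The Sirpb1a-led group carried more class II in every library: 1222 CPM in running infarct, 1381 CPM in sedentary infarct, 1927 CPM in running and 1391 CPM in sedentary nuclei, the last from 11 nuclei. Its ratio was 0.634 for running infarct over running (0.543 to 0.744) and 0.993 for sedentary infarct over sedentary (0.721 to 1.40). The F13a1-led group, which was shallow, had 464, 715, 944 and 724 CPM. The finer groups were chosen after their values were seen, and at that resolution the Sirpb1a-led group has no name by the marker rule. Other genes, chosen after the groups were seen, differed inside the Vsig4-led group as well: Timd4 had 96.0 CPM in running infarct, 175 CPM in sedentary infarct, 289 CPM in running and 183 CPM in sedentary nuclei, Lyve1 had 84.5, 155, 267 and 240 CPM, and Cd163 had 580, 762, 989 and 999 CPM. Ccr2 ran the other way, with 38.7 CPM in running infarct nuclei, against 0 CPM in running nuclei. Their part in the class II values was not tested. With the classes of the finer clustering, where the Sirpb1a-led group is outside the macrophage-like class, the log2 ratio of the class II sum was -0.99 for running infarct over running, in place of -0.15, and -0.82 for sedentary infarct over sedentary, in place of 0.20. With nuclei of at most 5% mitochondrial UMIs, which kept 23 macrophage-like nuclei of the running library, it was -1.02 for running infarct over running and 1.13 for running over sedentary, in place of 0.25.

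**Figure D2:**
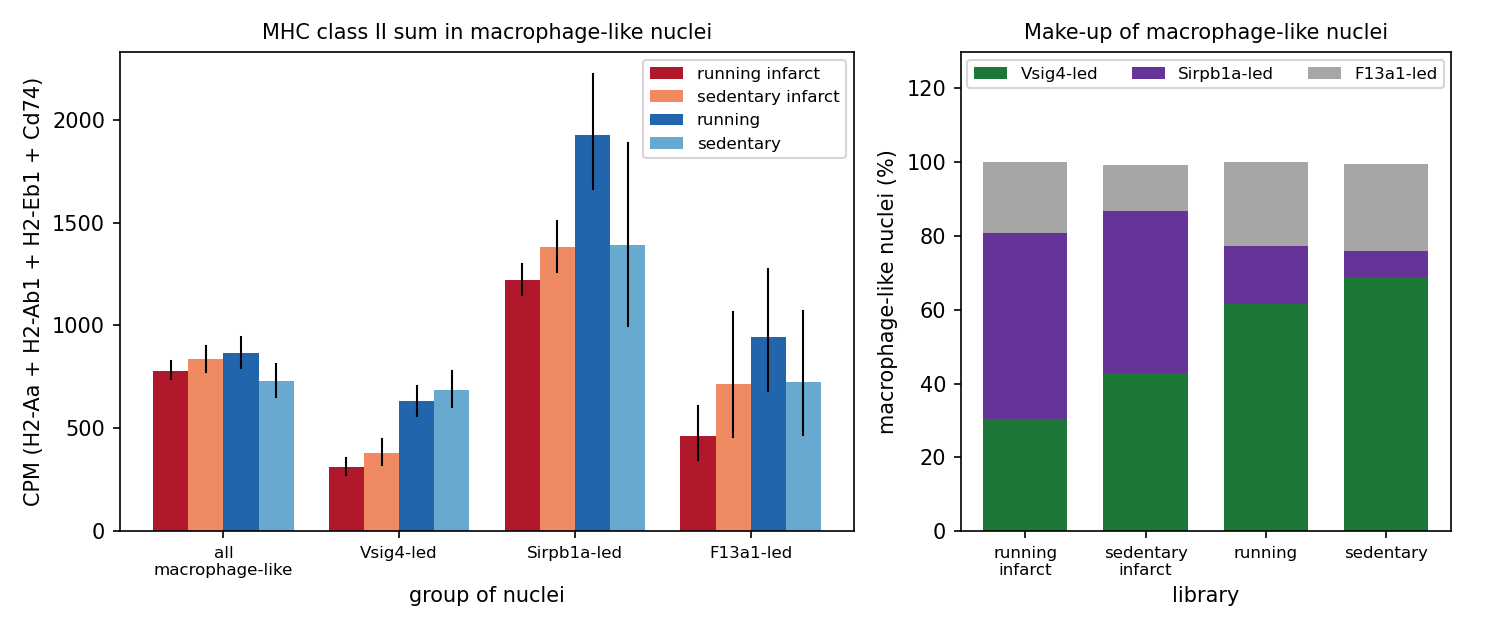
Left, class II sum (H2-Aa, H2-Ab1, H2-Eb1 and Cd74) in CPM for all macrophage-like nuclei and for the 3 finer groups in it, 1 bar per library with the 95% Poisson interval as a line; right, the share of macrophage-like nuclei in each finer group by library, in percent. The whole class runs between 729 and 867 CPM, while the Vsig4-led bars stand at 314 and 382 CPM in the infarct libraries and at 631 and 688 CPM in the others.

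Dendritic cell-like nuclei were few, 19 in running infarct and 14 in sedentary infarct hearts, against 9 in running and 3 in sedentary hearts, and only the infarct libraries were compared. Their class II sum was 1717 CPM in running infarct (1476 to 1986) and 3628 CPM in sedentary infarct nuclei (3226 to 4066), a ratio of 0.473 (0.391 to 0.571). H2-Aa had 341 CPM in running infarct and 797 CPM in sedentary infarct nuclei, and H2-Eb1 had 417 CPM and 993 CPM. Ciita differed less, with 674 CPM in running infarct and 907 CPM in sedentary infarct nuclei. The same running infarct nuclei had 1281 CPM of 8 macrophage transcripts, against 245 CPM in the sedentary infarct nuclei, and the part of this difference in the class II values was not tested. H2-Ob, found in both classes, had 142 CPM in running infarct and 368 CPM in sedentary infarct dendritic cell-like nuclei; in B cell-like nuclei it had 334 CPM in running infarct (61 nuclei), 228 CPM in sedentary infarct (22 nuclei) and 323 CPM in running hearts (22 nuclei). The sedentary library held a lone B cell-like nucleus.

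The share of nuclei with a Cd74 UMI was higher in macrophage-like than in vascular endothelial-like, fibroblast-like and cardiomyocyte-like nuclei of every library, and the libraries did not stand in the order of the class II sums. Thinned to 1000 UMIs per nucleus, it was 23.9% of macrophage-like nuclei in running infarct, 24.9% in sedentary infarct, 28.7% in running and 29.6% in sedentary hearts, and the unthinned shares were 32.4%, 40.0%, 44.3% and 40.3%. In vascular endothelial-like nuclei the thinned shares were 5.59%, 5.80%, 7.34% and 4.23% (unthinned 9.07%, 9.92%, 13.4% and 7.80%). Cardiomyocyte-like nuclei, which should lack the transcript, had thinned shares of 2.31%, 2.06%, 1.11% and 1.06% (unthinned 8.33%, 12.7%, 10.0% and 8.21%). Fibroblast-like nuclei had 2.12% and 1.41% after thinning in the infarct libraries, no more than the cardiomyocyte-like shares, and 2.65% in running and 2.61% in sedentary hearts, above them. Nuclei too shallow to thin were left out, numbering 118, 19, 32 and 24 in the macrophage-like class, 266, 90, 191 and 134 in the vascular endothelial-like class and 117, 32, 27 and 28 in the cardiomyocyte-like class.

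Class II was set beside transcripts of macrophages in each class, since free RNA can bring both into other nuclei. Class II UMIs per UMI of the 8 macrophage transcripts (Mrc1, F13a1, Cd163 and others) numbered 0.126, 0.114, 0.0928 and 0.0694 in macrophage-like nuclei of the running infarct, sedentary infarct, running and sedentary libraries. In the unnamed cluster of very low depth the ratio was 0.467, 0.343, 0.581 and 0.392, and in fibroblast-like nuclei it was 0.382, 0.551, 0.616 and 0.436. Vascular endothelial-like nuclei stood at 0.523 in running infarct, 0.513 in sedentary infarct, 1.30 in running (1.11 to 1.52) and 0.530 in sedentary hearts. Their class II sum was 115 CPM in running infarct, 82.0 CPM in sedentary infarct, 161 CPM in running and 84.6 CPM in sedentary hearts. The running value was 1.90 times the sedentary value (1.58 to 2.30), while the macrophage transcripts summed to 124 CPM in running and 160 CPM in sedentary vascular endothelial-like nuclei. Ciita in these nuclei had 10.9, 4.15, 20.0 and 7.55 CPM. H2-DMb1, singled out after its values were seen, had 3 and 1 UMIs in the infarct libraries, 25 UMIs in running and 2 UMIs in sedentary vascular endothelial-like nuclei. Class II of this class was highest in the running library, where the macrophage transcripts were lowest. A higher class II sum in running than in sedentary nuclei was not particular to this class. It was 82.4 against 39.2 CPM in endocardial-like and 59.7 against 29.3 CPM in pericyte-like nuclei. Fibroblast-like nuclei had 54.0 against 36.3 CPM and cardiomyocyte-like nuclei 29.5 against 21.2 CPM. T cell-like and smooth muscle-like nuclei and the unnamed Col11a1-led and Top2a-led clusters went the other way. Other presenting classes had more class II per macrophage transcript, 1.34 and 14.8 in dendritic cell-like nuclei of the running infarct and sedentary infarct libraries and 4.38, 5.21 and 3.63 in B cell-like nuclei of the running infarct, sedentary infarct and running libraries. The part of free RNA in these values was not tested.

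**Figure D3:**
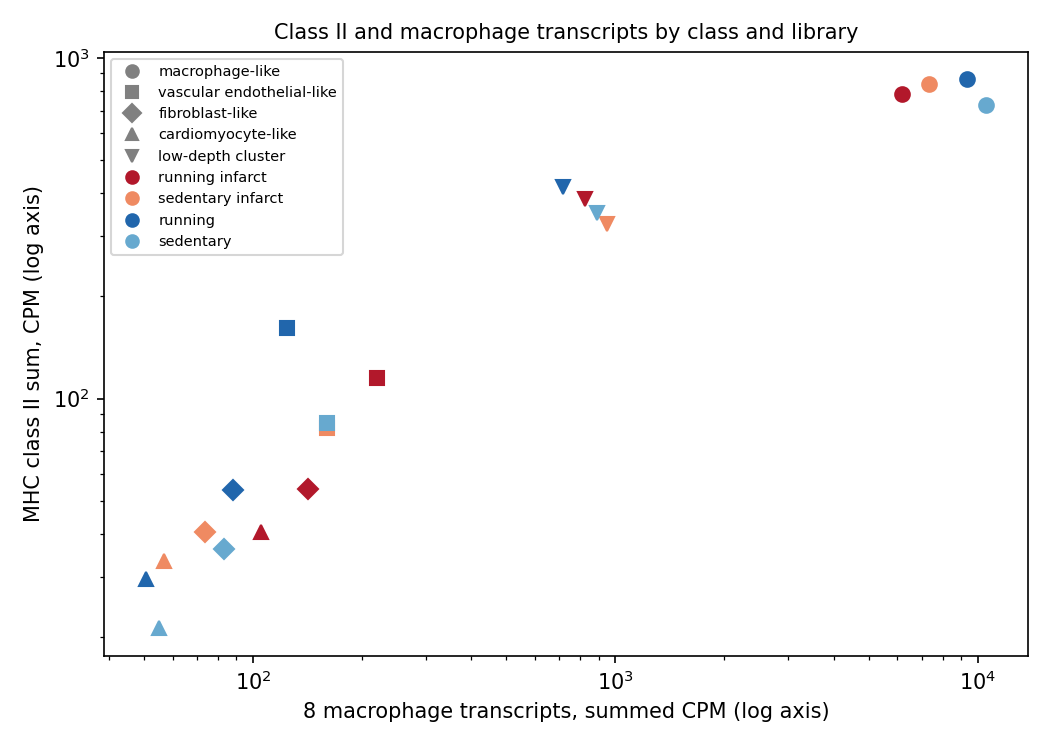
Class II sum in CPM (vertical) against the summed CPM of 8 macrophage transcripts (horizontal), both on log axes, 1 point for each of 5 classes (shape) in each of 4 libraries (colour). The running point of the vascular endothelial-like class, at 124 CPM across and 161 CPM up, lies above the other 3 of its class, which are at 220, 160 and 160 CPM across and 115, 82.0 and 84.6 CPM up.

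Of the 3 sums in the macrophage-like, vascular endothelial-like, fibroblast-like and cardiomyocyte-like classes, class I in vascular endothelial-like nuclei differed most between libraries. The sum of H2-K1, H2-D1 and B2m was 774 CPM in running infarct, 1103 CPM in sedentary infarct, 1742 CPM in running and 1418 CPM in sedentary nuclei, from 838, 383, 940 and 820 nuclei. Running infarct was 2.25-fold lower than running, a ratio of 0.444 (0.417 to 0.473). The other ratios were 0.702 for running infarct over sedentary infarct (0.647 to 0.762), 0.778 for sedentary infarct over sedentary (0.724 to 0.835) and 1.23 for running over sedentary (1.17 to 1.29). Running infarct was thus the lowest library and running the highest. The mitochondrial share of these nuclei, given above, ran in the same order of libraries. In nuclei with at most 5% mitochondrial UMIs the log2 ratio for running infarct over running was -1.19, in place of -1.17. That limit kept 297 of 838 running infarct and 112 of 940 running nuclei. The part of the mitochondrial share in the class I values was not tested.

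**Figure D4:**
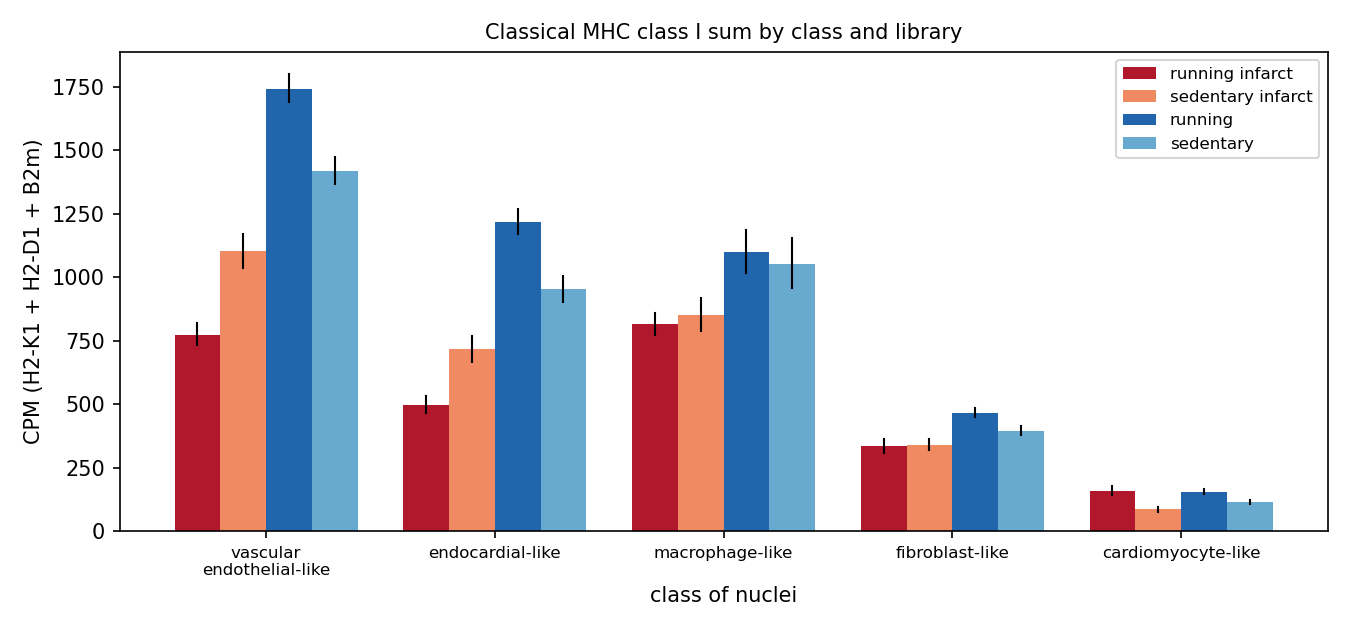
Classical class I sum (H2-K1, H2-D1 and B2m) in CPM for 5 classes of nuclei, 1 bar per library with the 95% Poisson interval as a line. In vascular endothelial-like and endocardial-like nuclei the bars run in the order running infarct, sedentary infarct, sedentary and running; in cardiomyocyte-like nuclei the sedentary infarct bar, at 86.5 CPM, is the lowest.

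The class I heavy chains named here, B2m, Nlrc5 and Psmb9 were lower in running infarct than in running nuclei of this class. H2-K1, a classical heavy chain, had 298 CPM in running infarct, 435 CPM in sedentary infarct, 672 CPM in running and 462 CPM in sedentary nuclei, a ratio of 0.444 for running infarct over running (0.400 to 0.491). H2-D1, the other classical heavy chain, had 313, 402, 643 and 592 CPM, a ratio of 0.486 (0.439 to 0.538). B2m, the shared light chain, had 164, 266, 427 and 365 CPM, a ratio of 0.383 (0.333 to 0.439). In all 3, running infarct was the lowest library and running the highest. H2-Q7, a Q region heavy chain, had 80.2 CPM in running infarct, 141 CPM in sedentary infarct, 229 CPM in running and 123 CPM in sedentary nuclei, and its near copy H2-Q6 had 41.6, 95.4, 141 and 82.1 CPM. H2-Q4 had 50.7, 85.1, 123 and 80.6 CPM, and H2-T23, which encodes Qa-1, a ligand of NK cell receptors, had 41.0, 66.4, 82.7 and 79.6 CPM. Nlrc5, the class I transactivator, had 62.8, 78.8, 127 and 77.6 CPM, and Psmb9, an immunoproteasome subunit, had 18.7, 37.3, 43.6 and 24.7 CPM. For running infarct over running their ratios were 0.350 for H2-Q7 (0.287 to 0.425), 0.294 for H2-Q6 (0.224 to 0.383), 0.411 for H2-Q4 (0.318 to 0.527), 0.496 for H2-T23 (0.370 to 0.658), 0.495 for Nlrc5 (0.392 to 0.622) and 0.429 for Psmb9 (0.277 to 0.649). These 9 genes were named because their intervals lay wholly past 1.5-fold, so their shared direction was fixed by that choice. Heavy chains, light chain, transactivator and proteasome subunit alike were lowest in running infarct and highest in running nuclei.

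For running infarct over running, 17 of 23 members with at least 50 UMIs were at least 1.5-fold lower and 0 were higher in vascular endothelial-like nuclei, against 11.5% and 6.45% of 9309 genes. The median log2 ratio was -0.85 over these members and -0.07 over all genes. For running infarct over sedentary infarct, 7 of 17 were lower and 0 higher, against 5.09% and 3.90% of genes, with medians of -0.52 and -0.04; H2-Q6 alone had an interval wholly past the fold, with a ratio of 0.436 (0.315 to 0.603). For sedentary infarct over sedentary, 1 of 19 was higher and 1 was lower, against 7.64% and 8.78%, with medians of -0.02 and 0.01. For running over sedentary, 12 of 23 were higher and 1, H2-Ke6, was lower, against 5.53% and 2.95%, with medians of 0.61 and 0.02; H2-Q7 alone had an interval wholly past the fold, with a ratio of 1.86 (1.59 to 2.17). These comparisons share libraries and are not independent of each other. For running over sedentary, the count of higher members fell from 12 to 1 in nuclei with 0 UMIs of Y-linked genes. Those were 533 of 940 running and 482 of 820 sedentary nuclei. It also fell with at most 5% mitochondrial UMIs. The count of lower members for running infarct over running fell in both subsets too. How many members reached 50 UMIs in them is not given.

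**Figure D5:**
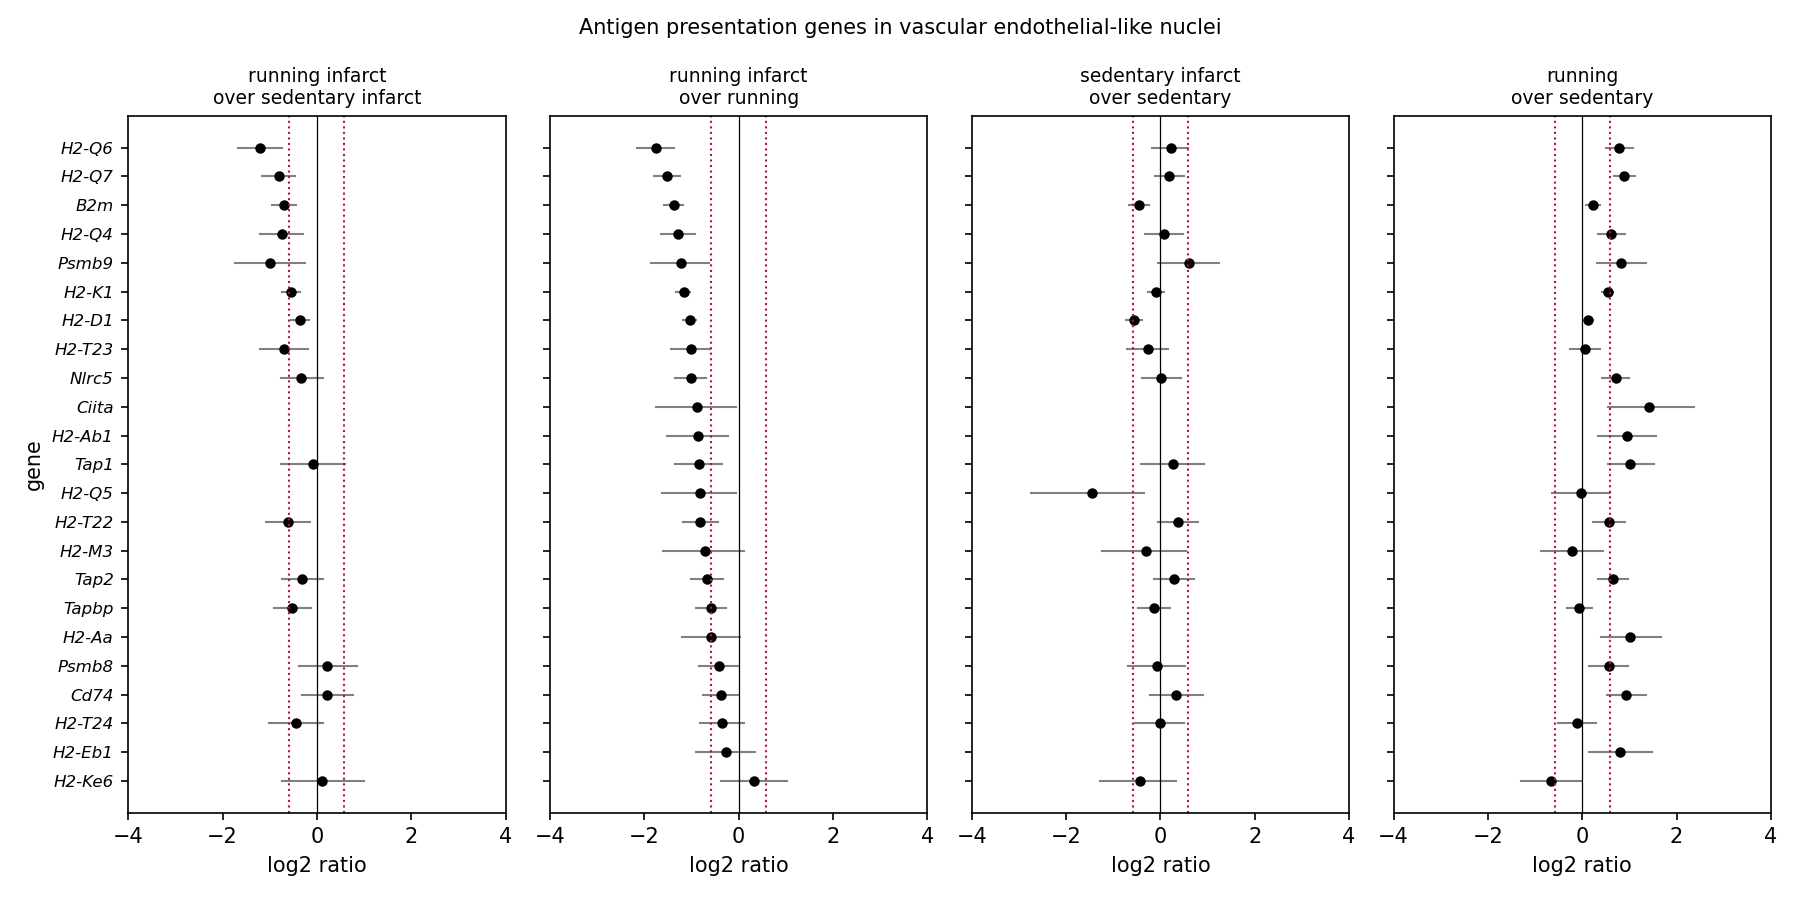
Log2 ratio (points) with 95% counting intervals (lines) of each antigen presentation gene with at least 50 UMIs over both libraries in vascular endothelial-like nuclei, 1 panel per comparison; the dotted lines mark 1.5-fold. In the panel of running infarct over running, 22 of 23 points are below 0, and in the panel of running over sedentary 18 of 23 are above it.

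The class I difference was present within each cluster of the class. In the Btnl9-led cluster the sum was 770 CPM in running infarct, 1180 CPM in sedentary infarct, 1782 CPM in running and 1444 CPM in sedentary nuclei, a ratio of 0.432 for running infarct over running (0.395 to 0.472). In the Lhx6-led cluster it was 781, 1045, 1856 and 1587 CPM, a ratio of 0.421 (0.371 to 0.476). In the Gja5-led cluster, Gja5 being a gap junction gene of arterial endothelium, it was 793, 946, 1559 and 1112 CPM, a ratio of 0.509 (0.411 to 0.625). The make-up of the class differed, with 79.0% of nuclei in the Btnl9-led cluster in running infarct, 61.9% in sedentary infarct, 46.2% in running and 33.7% in sedentary hearts. Nuclei in which 4 Y-linked genes had 2 or more UMIs gave a ratio of 0.363 (0.307 to 0.428). Nuclei with none of these UMIs gave 0.470 (0.434 to 0.508). The first kind made up 9.31% of the class in running infarct, 8.62% in sedentary infarct, 24.4% in running and 24.1% in sedentary hearts. Median depth was 1616, 2429, 2538.5 and 2452 UMIs. Both infarct libraries also had the lower shares in macrophage-like, fibroblast-like and cardiomyocyte-like nuclei, but not in glial-like nuclei or the unnamed clusters. Whether the libraries differed in the sex of their hearts was not tested, nor was the part of sex in these ratios. Among single genes, H2-T23 did not keep its direction in nuclei with at most 5% mitochondrial UMIs, where its log2 ratio was 0.04 in place of -1.01; in nuclei with at least 2 Y-linked UMIs it was -0.24.

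Endocardial-like nuclei, which line the chambers, had the same order. Their class I sum was 498 CPM in running infarct, 717 CPM in sedentary infarct, 1218 CPM in running and 952 CPM in sedentary nuclei, a ratio of 0.409 for running infarct over running (0.377 to 0.443). The Nrg1-led cluster had 492, 723, 1372 and 1021 CPM (0.358 for the same comparison, 0.329 to 0.390), and the Calcr-led cluster 554, 681, 833 and 837 CPM (0.664, 0.526 to 0.831). H2-Q7 had 24.5 CPM in running infarct, 36.3 CPM in sedentary infarct, 123 CPM in running and 45.4 CPM in sedentary nuclei; the ratio was 0.199 for running infarct over running (0.139 to 0.278) and 2.72 for running over sedentary (2.06 to 3.62). H2-Q6 had 8.96, 21.6, 65.1 and 29.6 CPM, with ratios of 0.138 (0.0748 to 0.236) and 2.20 (1.54 to 3.19). Both Q region genes were lowest in running infarct and highest in running nuclei, and both were picked here after their values were seen. Lymphatic endothelial-like nuclei differed less, with a class I sum of 490, 554, 779 and 654 CPM and a ratio of 0.629 for running infarct over running (0.546 to 0.721).

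Class I of the other main classes differed by less than 1.5-fold with 1 exception. Macrophage-like nuclei had 815 CPM in running infarct, 850 CPM in sedentary infarct, 1100 CPM in running and 1053 CPM in sedentary hearts, with ratios of 0.741 for running infarct over running (0.674 to 0.814) and 0.807 for sedentary infarct over sedentary (0.716 to 0.911). Fibroblast-like nuclei had 335, 339, 466 and 395 CPM, with ratios of 0.719 (0.657 to 0.785) and 0.858 (0.793 to 0.927). Both infarct libraries were thus lower than both libraries without infarction in these classes too. Cardiomyocyte-like nuclei were the exception, with 160 CPM in running infarct and 86.5 CPM in sedentary infarct nuclei, a ratio of 1.85 (1.58 to 2.17), against 156 CPM in running and 115 CPM in sedentary nuclei. H2-K1 in these nuclei had 59.4 CPM in running infarct and 27.7 CPM in sedentary infarct nuclei, a ratio of 2.15 (1.63 to 2.84). The shallow Xirp2-led cluster, however, made up 52.6% of the class in running infarct, 20.8% in sedentary infarct, 15.8% in running and 11.7% in sedentary hearts, and its class I sum was 465, 468, 498 and 411 CPM. Within it the ratio of running infarct over sedentary infarct was 0.995 (0.713 to 1.41), and within the deeper Nmrk2-led cluster, with 108 CPM in running infarct and 74.4 CPM in sedentary infarct nuclei, it was 1.45 (1.19 to 1.76). In nuclei with at least 2 Y-linked UMIs the log2 ratio of H2-K1 for this comparison was 0.16, in place of 1.10. The unnamed cluster of lowest depth had 1830, 1746, 1976 and 1609 CPM of class I, more than any named class on average.

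In fibroblast-like nuclei, 3 of 17 members were at least 1.5-fold higher and 0 lower for running infarct over sedentary infarct, against 4.39% and 4.49% of all genes. For running infarct over running, 1 of 22 was higher and 4 were lower, against 5.49% and 8.93%. For sedentary infarct over sedentary, 3 of 20 were higher and 0 lower, against 4.91% and 7.58%. For running over sedentary, 7 of 23 were higher and 0 lower, against 3.73% and 2.23%, with a median log2 ratio of 0.29 over the members. Nlrc5 was the member whose interval lay wholly past the fold, with 20.2 CPM in running and 8.05 CPM in sedentary nuclei, a ratio of 2.51 (1.74 to 3.67); it had 25.7 CPM in running infarct and 12.5 CPM in sedentary infarct nuclei. In nuclei with 0 Y-linked UMIs its log2 ratio for running over sedentary was 0.57, in place of 1.33. In cardiomyocyte-like nuclei, 2 of 9 members were higher and 0 lower for running infarct over sedentary infarct, against 6.05% and 5.33% of genes. For running infarct over running, 1 of 13 was higher and 2 were lower, against 7.58% and 8.80%. For sedentary infarct over sedentary, 1 of 12 was higher and 1 was lower, against 7.76% and 6.50%. For running over sedentary, 6 of 16 were higher and 0 lower, against 6.18% and 2.89%. Nlrc5 had 16.1 CPM in running and 4.65 CPM in sedentary cardiomyocyte-like nuclei, a ratio of 3.47 (2.27 to 5.45), and H2-Q7 had 9.57 CPM in running and 3.72 CPM in sedentary nuclei, a ratio of 2.57 (1.56 to 4.37). Nlrc5 was at least 1.5-fold higher in running than in sedentary nuclei in all 4 main classes, with 151 and 73.4 CPM in macrophage-like and 127 and 77.6 CPM in vascular endothelial-like nuclei. The members that passed the minimum of 50 UMIs are the more abundant ones in each class, not all 34.

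The genes of peptide supply were also lower in running infarct than in running vascular endothelial-like nuclei, but their libraries did not stand in the order of class I. The sum of Tap1, Tap2, Tapbp, Psmb8 and Psmb9 in vascular endothelial-like nuclei was 233 CPM in running infarct, 296 CPM in sedentary infarct, 373 CPM in running and 275 CPM in sedentary nuclei. Its ratio was 0.625 for running infarct over running (0.552 to 0.706) and 1.36 for running over sedentary (1.22 to 1.51). Macrophage-like nuclei had 193, 186, 227 and 167 CPM, fibroblast-like nuclei 119, 112, 154 and 132 CPM and cardiomyocyte-like nuclei 34.8, 30.9, 44.1 and 35.5 CPM, and in these classes every ratio lay inside 1.5-fold. Tap1 in vascular endothelial-like nuclei had 30.2 CPM in running infarct, 32.2 CPM in sedentary infarct, 54.3 CPM in running and 26.7 CPM in sedentary nuclei, and Tapbp had 75.4, 108, 113 and 118 CPM. The transporter gene was thus highest in the running library, and tapasin differed little outside the running infarct library.

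Among the less abundant class I genes, the Q and T region genes together summed to 709 CPM in running infarct, 688 CPM in sedentary infarct, 1080 CPM in running and 722 CPM in sedentary T cell-like nuclei, the highest of any class. In vascular endothelial-like nuclei they summed to 328, 536, 749 and 511 CPM, a ratio of 0.437 for running infarct over running (0.396 to 0.482). H2-M3, which presents formylated bacterial peptides, had 21.4 CPM in running infarct, 42.4 CPM in sedentary infarct, 21.5 CPM in running and 9.18 CPM in sedentary macrophage-like nuclei; it was picked after its values were seen, and the sedentary value rests on 4 UMIs. H2-T3, the thymus leukemia antigen, was highest in lymphatic endothelial-like nuclei, with a mean of 2.28 CPM, and had 39 UMIs in all. H2-M5 (105 UMIs), H2-Q10 (77), H2-Bl (26) and H2-Oa (22) were too sparse to compare between libraries. H2-M2 (7 UMIs), H2-Q2 (5), H2-Q1 (4), H2-M10.2 (3) and H2-M10.3 (1) did not reach the minimum of 20 UMIs. H2-Ea, H2-M1, H2-M9, H2-M10.1, H2-M10.4, H2-M10.5, H2-M10.6 and H2-M11 had 0 UMIs in 19806 barcodes.

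Genes that act with the members were counted from lists in macrophage-like nuclei. Of the class II proteases and transport genes, 2 of 12 measured were at least 1.5-fold higher and 0 lower for running infarct over running, against 9.37% and 10.2% of all genes. Ctsh, which encodes cathepsin H, had 299 CPM in running infarct and 154 CPM in running nuclei, a ratio of 1.94 (1.55 to 2.45). Lgmn, the asparaginyl endopeptidase that takes part in processing antigen, had 387 CPM in running infarct and 203 CPM in running nuclei, a ratio of 1.90 (1.57 to 2.33). Ctsh and Lgmn were named from the list because their intervals lay wholly past 1.5-fold, so no contrast of proteases with class II is read from them. Levels of Ctsh and Lgmn in the finer groups, whose shares differed between these libraries, are not given. For the sedentary pair, Lgmn had 339 CPM in sedentary infarct and 218 CPM in sedentary nuclei, a ratio of 1.56 (1.23 to 1.99). The factors that bind class II promoters (Rfx5, the Nfy genes, Creb1 and others) had 0 genes past 1.5-fold in any comparison, with 5 or 6 of 9 measured. Of the class I chaperones and peptide supply genes, 0 were higher and 1 of 10 was lower for running infarct over sedentary infarct, against 4.96% and 5.70% of all genes. Of the costimulatory and checkpoint ligands, 2 of 5 were lower and 0 higher for running infarct over running, against 10.2% and 9.37% of all genes. With so few genes measured, nothing is read from these counts.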

How the data were processed

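Nuclei were sorted by Hoechst from frozen ventricles and profiled with 10x Genomics 3′ v3.1 chemistry, per the labels' protocols. The authors deposited raw UMI counts per gene and nucleus; Cell Ranger 7.1 and GRCm39 are named in the submitters' processing notes. Depth was 29916572 UMIs in running infarct, 26170995 in sedentary infarct, 37533722 in running and 32899707 in sedentary nuclei.

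The filter asked for 300 or more genes per barcode and no more than 20% mitochondrial UMIs, and the highest Scrublet scores were removed at 0.8% per 1000 barcodes, since the automatic threshold marked 0 barcodes. Counts were scaled to 10000 per nucleus, and 3000 variable genes without the members, 40 components and 15 neighbours gave 25 Leiden clusters at resolution 1 (scanpy 1.11.5), with no integration. A cluster was named after the type whose markers exceeded the mean of clusters most, if at least 3 were detected. The fibroblast-associated Col11a1-led cluster stayed unnamed and was kept apart. Summed counts per class and library were scaled to 1000000 UMIs of nuclear genes in the class (CPM). Intervals at 95% are exact Poisson for levels, conditional binomial for ratios and Clopper-Pearson for shares, and cover counting error only. Reported members had at least 20 UMIs over the 4 libraries; compared ones had at least 50 over both libraries, and past the fold means 1.5-fold. Levels need at least 10 nuclei, and a count of 0 allows up to 3. Named members are those whose ratio interval lies wholly past 1.5-fold in the 4 main classes. The procedure was tested on simulated data. The members, lists and classes were chosen with earlier results of these data known. Alternatives were other filters, resolutions, denominators, weights, count minimums, folds and splits by Y-linked UMIs. The result of 1 gene list is not reported here.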

Additional observations from a re-analysis of the deposited data

How the results depend on the processing

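Depth limits single genes most: members under 50 UMIs over both libraries were not compared, and each group is 1 library. No paired analysis was possible because each group has 1 library, and no library could be left out for the same reason. The class I difference of vascular endothelial-like nuclei between running infarct and running kept its direction and stayed past 1.5-fold under every alternative that gave a value. Of the 15 values of named members, 10 moved beyond their counting interval in nuclei with at least 2 Y-linked UMIs, 5 in nuclei with 0, 4 with at most 5% mitochondrial UMIs, and 0 at both other clustering resolutions, with all barcodes, with doublets kept and with other denominators. With at most 5% mitochondrial UMIs H2-T23 also turned to 0.04 in vascular endothelial-like nuclei (running infarct over running), and the cause was not tested. The strict filter (800 genes or more, mitochondrial UMIs up to 1%) left fewer than 10 nuclei in a library for every comparison but running infarct over sedentary infarct in fibroblast-like nuclei, where class I and peptide loading both had a log2 ratio of 0.88 and 0 members were higher. The 3 alternatives on the Col11a1-led and the shallow clusters were chosen after seeing the data, as was the split of macrophage-like nuclei. The planned comparison of protein sequences was not run. Thinning changed the Cd74 shares, whose unthinned values in macrophage-like nuclei were 32.4%, 40.0%, 44.3% and 40.3%, and in vascular endothelial-like nuclei 9.07%, 9.92%, 13.4% and 7.80%. The sums and counts that moved are given next, each as 4 values in the order running infarct over sedentary infarct, running infarct over running, sedentary infarct over sedentary and running over sedentary. Counts are members past the fold. The members measured and the share of all genes past the fold can differ with each setting and are not given. The counts alone therefore neither strengthen nor weaken a result. The causes were not tested. At 2-fold in place of 1.5-fold, the counts were 0, 0, 0 and 1 (higher in macrophage-like), 0, 1, 0 and 0 (lower in macrophage-like), 1, 9, 1 and 0 (lower in vascular endothelial-like), 0, 0, 0 and 3 (higher in vascular endothelial-like), 1, 0, 0 and 2 (higher in fibroblast-like), 0, 2, 0 and 0 (lower in fibroblast-like). They were also 1, 0, 1 and 3 (higher in cardiomyocyte-like), 0, 2, 0 and 0 (lower in cardiomyocyte-like). At a clustering resolution of 0.5, the log2 ratios were 0.01, -0.59, -0.36 and 0.24 (class I in fibroblast-like). The counts there were 1, 1, 1 and 3 (higher in macrophage-like), 0, 0, 0 and 12 (higher in vascular endothelial-like), 1, 6, 3 and 0 (lower in fibroblast-like), 3, 0, 3 and 7 (higher in fibroblast-like), 2, 2, 2 and 6 (higher in cardiomyocyte-like). At a clustering resolution of 2, the log2 ratios were 0.10, -0.30, -0.35 and 0.04 (class I in macrophage-like), -0.22, -0.99, -0.82 and -0.05 (class II in macrophage-like), -0.07, -0.39, -0.10 and 0.22 (class I in fibroblast-like). Counts under it were 1, 7, 5 and 0 (lower in macrophage-like), 1, 0, 0 and 1 (higher in macrophage-like), 7, 17, 2 and 1 (lower in vascular endothelial-like), 2, 3, 4 and 6 (higher in fibroblast-like), 0, 5, 1 and 0 (lower in fibroblast-like), 2, 1, 3 and 8 (higher in cardiomyocyte-like). In nuclei with 0 Y-linked UMIs, the log2 ratios were -0.01, 0.13, 0.15 and 0.00 (class II in macrophage-like), -0.46, -1.09, -0.49 and 0.13 (class I in vascular endothelial-like). This gave counts of 0, 0, 1 and 0 (higher in macrophage-like), 1, 3, 0 and 1 (lower in macrophage-like), 6, 10, 1 and 1 (lower in vascular endothelial-like), 0, 0, 1 and 1 (higher in vascular endothelial-like), 3, 2, 1 and 3 (higher in fibroblast-like), 0, 0, 2 and 0 (lower in fibroblast-like). They were also 0, 1, 0 and 0 (lower in cardiomyocyte-like), 2, 1, 1 and 1 (higher in cardiomyocyte-like). In nuclei with at least 2 Y-linked UMIs, the log2 ratios were -0.40, -0.46, 0.30 and 0.35 (class II in macrophage-like), -0.21, -0.59, -0.65 and -0.28 (class I in macrophage-like), -0.82, -1.46, -0.10 and 0.54 (class I in vascular endothelial-like), -0.83, -1.40, 0.33 and 0.89 (peptide loading in vascular endothelial-like), -0.39, -0.31, 0.16 and 0.08 (peptide loading in fibroblast-like), -0.05, -0.48, -0.11 and 0.32 (class I in fibroblast-like). They were also 0.44, -0.67, -0.60 and 0.51 (class I in cardiomyocyte-like). Counts past the fold were 2, 0, 0 and 2 (higher in macrophage-like), 1, 3, 1 and 1 (lower in macrophage-like), 3, 12, 0 and 0 (lower in vascular endothelial-like), 0, 1, 0 and 6 (higher in fibroblast-like), 0, 4, 1 and 0 (lower in fibroblast-like), 0, 1, 0 and 4 (higher in cardiomyocyte-like). They were also 0, 4, 2 and 0 (lower in cardiomyocyte-like). With all deposited barcodes, the log2 ratios were 0.63, -0.18, -0.35 and 0.47 (class I in cardiomyocyte-like). The counts there were 0, 0, 0 and 12 (higher in vascular endothelial-like), 2, 0, 3 and 8 (higher in cardiomyocyte-like), 0, 4, 2 and 0 (lower in cardiomyocyte-like). At a minimum of 100 UMIs, the counts were 1, 0, 0 and 0 (lower in macrophage-like), 1, 0, 0 and 2 (higher in macrophage-like), 0, 0, 0 and 10 (higher in vascular endothelial-like), 6, 14, 0 and 0 (lower in vascular endothelial-like), 0, 1, 0 and 6 (higher in fibroblast-like), 0, 2, 0 and 0 (lower in fibroblast-like). They were also 2, 0, 0 and 2 (higher in cardiomyocyte-like), 0, 0, 1 and 0 (lower in cardiomyocyte-like). At a minimum of 20 UMIs, the counts were 1, 1, 5 and 8 (higher in macrophage-like), 2, 5, 1 and 1 (lower in macrophage-like), 4, 0, 1 and 14 (higher in vascular endothelial-like), 8, 18, 2 and 1 (lower in vascular endothelial-like), 1, 4, 1 and 0 (lower in fibroblast-like), 4, 1, 3 and 9 (higher in cardiomyocyte-like). They were also 1, 6, 3 and 0 (lower in cardiomyocyte-like). With at most 5% mitochondrial UMIs, the log2 ratios were 0.03, -1.02, 0.07 and 1.13 (class II in macrophage-like), -0.05, -0.78, -0.33 and 0.41 (class I in macrophage-like), 0.04, -0.58, 0.09 and 0.71 (peptide loading in macrophage-like), 0.02, -0.59, -0.28 and 0.34 (class I in fibroblast-like), 0.65, 0.06, -0.49 and 0.10 (class I in cardiomyocyte-like), 0.44, -0.67, -0.59 and 0.52 (peptide loading in cardiomyocyte-like). Counts under it were 1, 1, 1 and 5 (higher in macrophage-like), 2, 7, 1 and 0 (lower in macrophage-like), 8, 9, 1 and 0 (lower in vascular endothelial-like), 0, 0, 2 and 4 (higher in vascular endothelial-like), 4, 0, 0 and 2 (higher in fibroblast-like), 0, 1, 2 and 1 (lower in fibroblast-like). They were also 0, 1, 2 and 0 (lower in cardiomyocyte-like), 2, 1, 1 and 1 (higher in cardiomyocyte-like). With doublets kept, the log2 ratios were -0.06, -0.70, -0.40 and 0.24 (class I in fibroblast-like), -0.06, -0.62, -0.33 and 0.23 (peptide loading in fibroblast-like). This gave counts of 4, 5, 1 and 0 (lower in macrophage-like), 1, 1, 0 and 2 (higher in macrophage-like), 0, 0, 0 and 12 (higher in vascular endothelial-like), 1, 9, 4 and 0 (lower in fibroblast-like), 4, 0, 2 and 7 (higher in fibroblast-like). With every nucleus weighed the same, the log2 ratios were -0.28, -0.21, 0.33 and 0.26 (class II in macrophage-like), -0.56, -1.13, -0.26 and 0.30 (class I in vascular endothelial-like), 1.02, 0.56, 0.08 and 0.54 (class I in cardiomyocyte-like), 0.35, -0.43, -0.16 and 0.63 (peptide loading in cardiomyocyte-like). Counts past the fold were 2, 1, 1 and 1 (higher in macrophage-like), 4, 2, 2 and 0 (lower in macrophage-like), 7, 15, 2 and 0 (lower in vascular endothelial-like), 1, 3, 1 and 0 (lower in fibroblast-like), 5, 4, 2 and 8 (higher in cardiomyocyte-like), 0, 2, 1 and 1 (lower in cardiomyocyte-like). With median-of-ratios size factors, the counts were 2, 0, 1 and 2 (higher in macrophage-like), 0, 0, 0 and 11 (higher in vascular endothelial-like). With the members among the variable genes, the log2 ratios were -0.08, -0.70, -0.37 and 0.25 (class I in fibroblast-like), -0.08, -0.62, -0.29 and 0.25 (peptide loading in fibroblast-like). The counts there were 2, 0, 0 and 2 (higher in macrophage-like), 3, 4, 1 and 0 (lower in macrophage-like), 1, 9, 2 and 0 (lower in fibroblast-like), 4, 0, 3 and 7 (higher in fibroblast-like). With mitochondrially encoded genes in the denominator, the counts were 3, 2, 3 and 6 (higher in fibroblast-like). With the Col11a1-led cluster in the fibroblast-like class, the log2 ratios were 0.00, -0.60, -0.36 and 0.24 (class I in fibroblast-like). Counts under it were 1, 6, 3 and 0 (lower in fibroblast-like), 3, 0, 2 and 7 (higher in fibroblast-like). Without the shallow cardiomyocyte cluster, the log2 ratios were 0.53, -0.38, -0.52 and 0.39 (class I in cardiomyocyte-like). This gave counts of 2, 0, 0 and 4 (higher in cardiomyocyte-like). Without the shallow endothelial cluster, the log2 ratios were -0.39, -1.14, -0.46 and 0.29 (class I in vascular endothelial-like). Counts past the fold were 0, 0, 2 and 12 (higher in vascular endothelial-like), 6, 16, 2 and 1 (lower in vascular endothelial-like).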
